A study of Mus musculus with 6 samples.

Results

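Genes of acetylcholine synthesis, reuptake and breakdown and of its receptors were examined in embryoid bodies (EBs) that contained spinal motor neurons. The members were 10 genes chosen by name: the enzymes Chat and Ache, the transporter Slc5a7, the nicotinic receptor subunits Chrna3, Chrna4, Chrna7, Chrnb2 and Chrnb4, and the muscarinic receptors Chrm2 and Chrm3. A row of the expression table, which held 19613 genes, was matched by symbol for 9 of the 10, and Chrm3 was not analysed here. The EBs were aggregates grown from mouse HBG3 HB9 embryonic stem cells (HGB3 in the text of the study), a line in which the promoter of Hb9 (Mnx1), a transcription factor of motor neurons, drives green fluorescent protein, and were induced with retinoic acid and a Hedgehog pathway agonist. They were then exposed to blood fluid from B6CBA-Tg(HDexon1)62Gpb/3J mice, a transgenic strain with exon 1 of the human HD gene that models Huntington's disease, and RNA was measured on Affymetrix mouse exon arrays. The labels call the fluid plasma and the methods call it serum, the donors being male carriers sampled before the onset of symptoms. The donors carried the transgene and the EBs did not. All 6 arrays belonged to this single group and were numbered as replicates 2, 4, 5, 6, 7 and 8. Control arrays were not analysed here, so the values below are levels under this serum and not responses to it. The study speaks of as many serum samples as there are arrays here. Whether each came from its own mouse or its own culture is not said, so p-values measure only the spread between these arrays.

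Motor neurons are cholinergic: they release acetylcholine onto muscle fibres and, through axon collaterals, onto neurons of the spinal cord. Chat joins choline and acetyl-CoA into acetylcholine, a vesicular transporter loads it into vesicles, Ache cleaves it in the synaptic cleft, and Slc5a7 takes the choline back into the terminal. Nicotinic receptors are ion channels built of subunits around a pore, with different subunits in neurons and in muscle, and muscarinic receptors act through G proteins. EBs hold many cell types besides motor neurons, so a level here is an average over them, and fewer cells of a type cannot be told apart from less RNA per cell.

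The bases just before the annotated start of 3 members are shown, and each of these starts is also the outer end of its gene. Sequences are from RefSeq on build GRCm38.p6, minus strand, 120 bases each, written 5′ to 3′ and ending at the base before the start. Capitals mark a GC box (GGGCGG, the site bound by Sp1-type factors) or an E-box (CANNTG, the site bound by basic helix-loop-helix factors), searched on both strands. The spans are chr14:32465910-32466029 for Chat, chr9:55026563-55026682 for Chrna3 and chr7:63212527-63212646 for Chrna7.
Chat: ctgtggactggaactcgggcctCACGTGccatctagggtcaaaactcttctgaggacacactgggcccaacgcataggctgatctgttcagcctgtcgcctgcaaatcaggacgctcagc
Chrna3: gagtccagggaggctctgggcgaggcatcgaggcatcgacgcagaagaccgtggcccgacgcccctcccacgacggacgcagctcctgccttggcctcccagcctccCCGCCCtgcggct
Chrna7: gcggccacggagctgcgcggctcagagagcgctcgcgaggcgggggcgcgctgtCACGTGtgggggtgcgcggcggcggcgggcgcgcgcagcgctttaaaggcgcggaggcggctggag
In these stretches the share of G and C bases was 57.5% before Chat, 72.5% before Chrna3 and 79.2% before Chrna7. Chat and Chrna7 each held 1 E-box and Chrna3 held 1 GC box. In the longer windows of 250 bases before to 50 bases after the start, which RefSeq gave for all 10 members, G and C made up 44.7% for Slc5a7 at the lowest and 74.3% for Chrna4 at the highest, against a median of 52.7% over 32851 such windows. A GC box lay in 6 of the 10 windows and in 35.7% of all windows. A TATA box (TATAAA) lay in 1 of the 10, that of Slc5a7, and in 13.6% of all windows. An E-box lay in 72.3% of all windows and in those of all members but Chrna4 and Chrm2. These are matches of letters, not sites shown to be bound. Along chromosome 9 the RefSeq genes Chrna5, Chrna3 and Chrnb4 follow one another as neighbours. The gene spans of Chrna3 and Chrna5 overlap, as do those of Chrnb2 and Adar and those of Chat and Slc18a3, the vesicular acetylcholine transporter. Slc18a3 was not analysed here, and how the arrays assign signal in such overlaps was not tested.

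The first question was whether each gene stood above background. Background was set in each array at the 95th percentile of the 1032 olfactory receptor (Olfr) genes, whose products are odour sensors of the nose, and lay between log2 intensities of 7.26 and 7.60. Each gene was tested by limma's moderated one-sample test on its difference from the background of the same array (two-sided, Benjamini-Hochberg adjustment over 18581 genes), with an adjusted p under 0.05 and a difference over 0 called above. All 9 measured members were above background, and each was above it in 6 of 6 arrays. Over all genes tested the share called above was 65.9%, and 29.6% were called below. With background at the 99th percentile of Olfr genes the share above was 46.1%, and all 9 members were above it. These shares are the ones to set beside each count of listed genes below. The members and lists were chosen with earlier results of these data known, so such a count is a description and not a test. The median difference from background was 1.93 on the log2 scale for the 9 members and 0.90 for all genes tested. Intensities depend on probe affinity, so they place a gene against background and do not rank transcript amounts between genes. The table came from 6 arrays with median intensities of 296 to 311, and Pearson's r between pairs of arrays over all genes was 0.991 to 0.997. Replicate 8 had the lowest background.

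**Figure D1:**
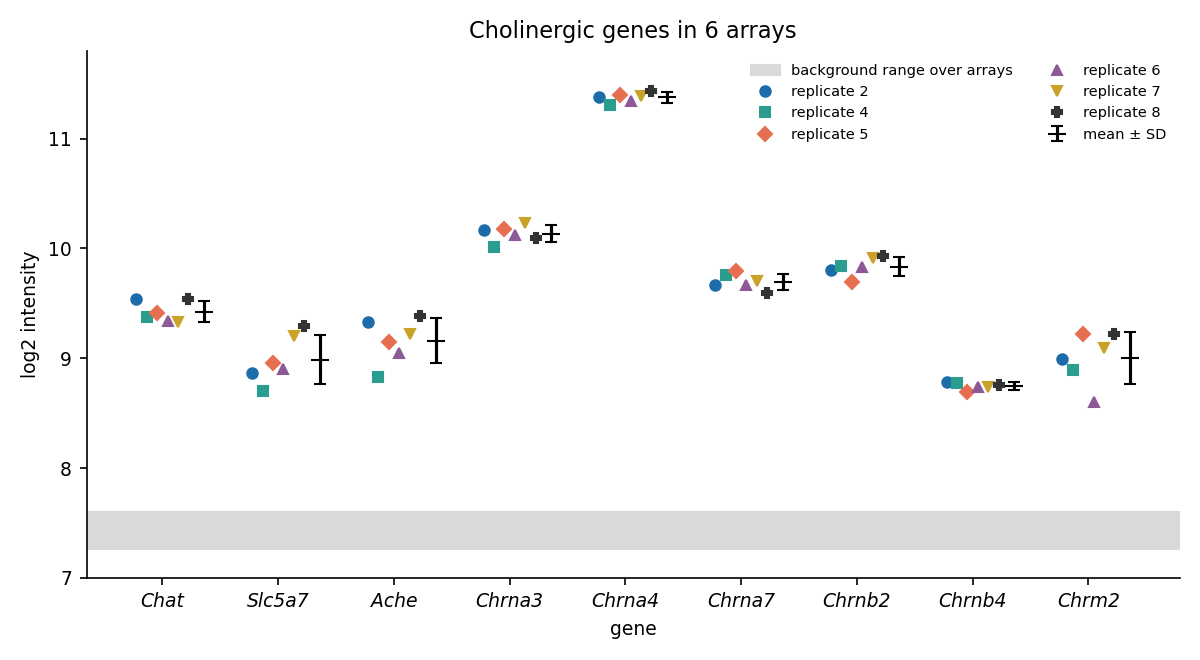
Log2 intensity of the 9 measured cholinergic genes in each of 6 arrays (one symbol per replicate, with the mean and SD to the right) and the range over arrays of the 95th percentile of Olfr genes (grey band, 7.26 to 7.60). Every point lies above the band, with Chrna4 at 11.31 to 11.44 and Chrnb4 at 8.69 to 8.79.

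Among the genes that make acetylcholine and recover its choline, Chat is the enzyme that defines a cholinergic neuron. Its log2 intensity was 9.54 in replicate 2, 9.37 in replicate 4, 9.41 in replicate 5, 9.34 in replicate 6, 9.33 in replicate 7 and 9.54 in replicate 8. Replicates 2 and 8 were high and the other arrays lay close together. The mean was 9.42 ± 0.097 (SD, n = 6), above 74.0% of all genes and above all Olfr genes but 1, which was Olfr68 at a mean of 10.34. The difference from background was 1.93 ± 0.071 (log2, SE), a 3.82-fold higher intensity, with a limma adjusted p of 3.92e-11.

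Slc5a7, the high-affinity choline transporter of cholinergic terminals, had log2 intensities of 8.86 in replicate 2, 8.70 in replicate 4, 8.95 in replicate 5, 8.91 in replicate 6, 9.21 in replicate 7 and 9.30 in replicate 8. Replicates 7 and 8 were high and replicate 4 was low. The mean was 8.99 ± 0.22 (SD, n = 6), and the difference from background was 1.5 ± 0.089 (log2, SE; limma adjusted p 5.00e-09). From the lowest to the highest array its intensity spanned 1.51-fold.

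Of 11 other matched genes of transmitter loading and choline supply, 9 were above background and 2 were below. Of all genes, 65.9% were above and 29.6% below. Slc10a4, a transporter-family protein of cholinergic and monoaminergic vesicles, was 3.41 ± 0.065 above background, and Acly, which supplies cytosolic acetyl-CoA, was 3.57 ± 0.060 above it (log2, SE). Of the choline transporter-like genes, Slc44a5 was 2.57 above, Slc44a2 was 1.82 above and Slc44a1 was 1.57 above, whereas Slc44a4 was 0.62 below and Slc44a3 was 1.53 below (log2). Choline kinase, which turns choline toward membrane lipid, was above background in both its forms, Chka by 1.19 and Chkb by 1.05 (log2). Of these 11 genes, 7 were above the 99th percentile of Olfr genes, against 46.1% of all genes.

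Ache, the enzyme that ends the signal by cleaving acetylcholine, had log2 intensities of 9.33 in replicate 2, 8.83 in replicate 4, 9.15 in replicate 5, 9.05 in replicate 6, 9.22 in replicate 7 and 9.39 in replicate 8. Replicate 4 was low, as for Slc5a7, and replicates 2 and 8 were high, as for Chat. The mean was 9.16 ± 0.20 (SD, n = 6), with a difference from background of 1.67 ± 0.085 (log2, SE; limma adjusted p 1.01e-09). Prima1, which anchors the enzyme in neuronal membranes, was 1.33 ± 0.049 above background (log2, SE). Colq, the collagen tail that holds it at the muscle endplate, was 0.43 ± 0.044 above, and the related enzyme Bche was 0.65 ± 0.083 above (log2, SE). At the 99th percentile of Olfr genes, Prima1 remained above background, and Colq and Bche were not above it. Ache is also made in red cell precursors. Of 5 matched erythroid markers, Hba-a2 was above background by 0.98 on the log2 scale. The other 4 were below it, among them Klf1 by 1.09 and Alas2 by 0.74, against 29.6% of all genes below. The summed intensity of the 5 ranged from 699.5 to 792.3 over the arrays, and its part in the Ache level was not tested.

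The 5 nicotinic members are subunits of neuronal receptors. Chrna4 and Chrnb2 form the most common receptor of the brain, Chrna3 and Chrnb4 form the receptor of autonomic ganglia, and Chrna7 forms channels of a single kind of subunit with high calcium flow. Chrna4 was 11.38, 11.31, 11.40, 11.34, 11.39 and 11.44 in replicates 2, 4, 5, 6, 7 and 8 (log2 intensity), so that its arrays spanned 1.10-fold. Its mean of 11.37 ± 0.046 (SD, n = 6) lay above 96.8% of all genes and above every Olfr gene, with a difference from background of 3.89 ± 0.059 (log2, SE; limma adjusted p 2.48e-14). This was a 14.8-fold higher intensity than background.

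Chrnb2, the partner of Chrna4, was 9.80, 9.84, 9.69, 9.83, 9.92 and 9.93 in the same order of replicates (log2 intensity). Replicate 5 was the lowest array and replicates 7 and 8 the highest. The mean was 9.83 ± 0.087 (SD, n = 6), and the difference from background was 2.35 ± 0.067 (log2, SE; limma adjusted p 3.81e-12).

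Chrna3 was 10.17, 10.01, 10.18, 10.12, 10.23 and 10.09 in replicates 2, 4, 5, 6, 7 and 8, with a mean of 10.13 ± 0.078 (log2 intensity, SD, n = 6). It was low in replicate 4 and stood 2.65 ± 0.051 above background (log2, SE; limma adjusted p 1.37e-13). Chrnb4, beside Chrna3 on the chromosome, was 8.79, 8.77, 8.69, 8.74, 8.74 and 8.75, with a mean of 8.75 ± 0.034 (log2 intensity, SD, n = 6). Its difference from background of 1.26 ± 0.059 was the smallest of the 9 members (log2, SE; limma adjusted p 4.22e-10), and 6 Olfr genes had a higher mean. The arrays of Chrnb4 spanned 1.07-fold, with replicate 5 the lowest.

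Chrna7 was 9.67, 9.75, 9.79, 9.66, 9.70 and 9.59 in replicates 2, 4, 5, 6, 7 and 8 (log2 intensity). Replicate 5 was high and replicate 8 was low. The mean was 9.70 ± 0.070 (SD, n = 6), and the difference from background was 2.21 ± 0.051 (log2, SE; limma adjusted p 5.82e-13).

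The other subunits of the family were nearer to background or below it. Of 6 further neuronal subunits, Chrna5, an accessory subunit from the same chromosome 9 cluster, was above background by 0.39 ± 0.078 (log2, SE; limma adjusted p 0.000409). The remaining 5 were below, by 0.33 for Chrna10, 0.39 for Chrna2, 0.61 for Chrna9, 0.89 for Chrna6 and 1.44 for Chrnb3 (log2). Of the 5 subunits of the muscle receptor, the fetal subunit Chrng was above background by 0.58 ± 0.046 and the adult subunit Chrne by 0.15 ± 0.051 (log2, SE). Chrna1, the muscle subunit that binds acetylcholine, was 0.43 below, and Chrnb1 and Chrnd differed from background by 0.03 and 0.04 with limma adjusted p of 0.573 and 0.392.

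In all, 8 of 16 nicotinic subunits were called above background, against 65.9% of all genes. The count depended on where background was set. At the 99th percentile of Olfr genes, where 46.1% of all genes were above, the count was 5, which were Chrna3, Chrna4, Chrna7, Chrnb2 and Chrnb4. With the 95th percentile of 162 vomeronasal receptor genes in place of Olfr genes, where 74.8% of all genes were above, it was 13, and Chrna6, Chrna9 and Chrnb3 were then the subunits not above it. The share of 74.8% counts the Olfr genes among all genes, whereas those of 65.9% and 46.1% leave them out.

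**Figure D2:**
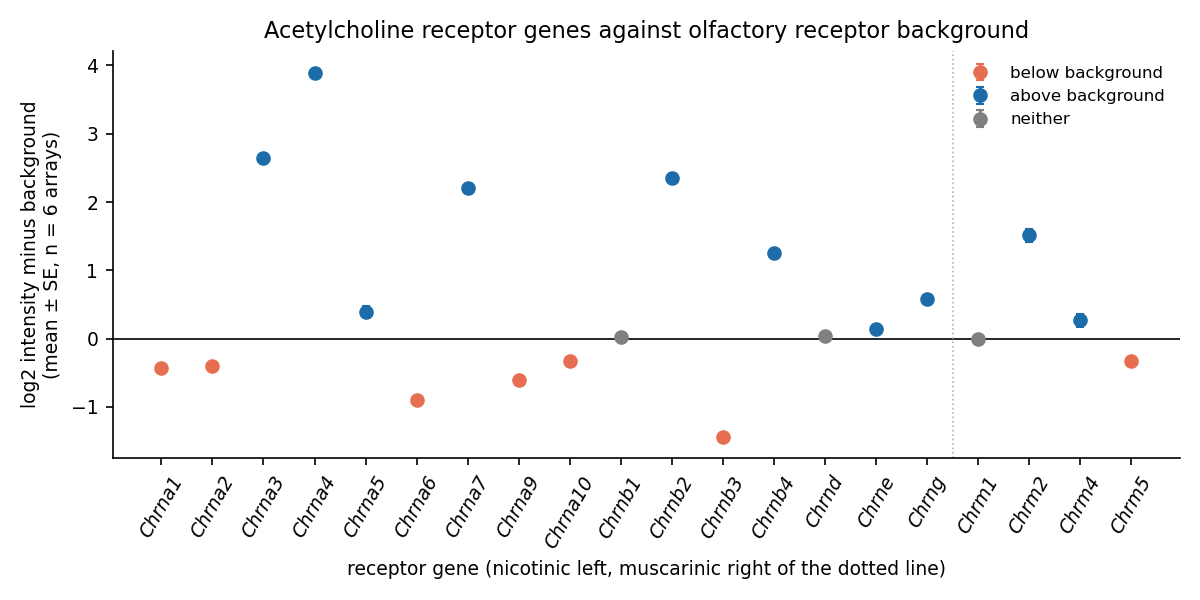
Log2 intensity minus the 95th percentile of Olfr genes in the same array (mean ± SE, n = 6) for 16 nicotinic and 4 muscarinic receptor genes, coloured by the limma call. Chrna3, Chrna4, Chrna7, Chrnb2, Chrnb4 and Chrm2 stand more than 1 log2 unit above the line, and the other 14 genes lie between -1.44 and 0.58.

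Skeletal muscle markers were given beside the muscle subunits, since EBs can hold mesoderm. Of 7 matched markers, 4 were above background, Acta1 by 1.34, Tnnt3 by 1.05, Myod1 by 0.24 and Ckm by 0.16, and Myog, Myf5 and Myl1 were below (log2). Their summed intensity ranged from 1378 to 1837 over the arrays, and their part in the Chrng and Chrne levels was not tested. Of the 7, 1 was above the 99th percentile of Olfr genes. Of all genes, 65.9% were above background and 46.1% above the 99th percentile.

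Of 11 genes that help nicotinic receptors assemble or tune them, 9 were above background, against 65.9% of all genes. Tmem35a, the chaperone NACHO that is needed for receptors of Chrna7, was 3.32 ± 0.052 above background (log2, SE), and Ric3, another chaperone of Chrna7, was 1.27 ± 0.064 above it. Ly6h and Ly6e, of the family of small membrane-bound receptor modulators, were 1.71 and 2.68 above, whereas Lynx1 and Psca were 0.33 and 0.55 below (log2). At the 99th percentile of Olfr genes, 5 of the 11 were above background, near the share of all genes of 46.1%. Of 7 genes for clustering receptors at the endplate, 5 were above, and 4 at the 99th percentile. Agrn, the signal that motor axons release to cluster receptors, was 3.77 ± 0.064 above background, and its receptor Lrp4 was 1.32 ± 0.058 above it (log2, SE). Musk and Rapsn, the kinase and the scaffold of the muscle side, were 1.01 and 0.43 below (log2).

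Of the muscarinic receptors, Chrm2, which couples to inhibitory G proteins, was 9.0, 8.89, 9.22, 8.60, 9.10 and 9.22 in replicates 2, 4, 5, 6, 7 and 8 (log2 intensity). Replicate 6 was low, and replicates 5 and 8 were high and nearly equal. The mean was 9.0 ± 0.23 (SD, n = 6), and the difference from background was 1.51 ± 0.092 (log2, SE; limma adjusted p 6.40e-09). Chrm4, which also couples to inhibitory G proteins, was 0.27 ± 0.091 above background (log2, SE; limma adjusted p 0.0144). Chrm5 was 0.33 below, and Chrm1 differed from background by -0.0037 with a limma adjusted p of 0.941 (log2). At the 99th percentile of Olfr genes, Chrm2 was the muscarinic receptor above background, of the 4 analysed.

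Of 13 genes through which muscarinic receptors act, 11 were matched and all 11 were above background, against 65.9% of all genes. Above the 99th percentile of Olfr genes there were 9, against 46.1%, and Plcb1, a phospholipase, and Kcnj3 were not. The inhibitory G protein subunits Gnao1 and Gnai2 stood 4.59 ± 0.062 and 4.55 ± 0.058 above it, and Gna11, which couples to receptors such as Chrm3, stood 2.78 ± 0.059 above (log2, SE). Kcnq3, a channel of the current that muscarinic signals close, was 1.33 above background, and Kcnj3, a channel that inhibitory G proteins open, was 0.24 above (log2). Chrm2 is also the main muscarinic receptor of the heart. Of 8 matched markers of cardiac and smooth muscle, Nkx2-5, Tnnt2 and Acta2 were above background, by 2.02, 0.47 and 0.53 (log2), Myh7, Myh11, Cnn1 and Tagln were below and Actn2 differed by -0.03. Nkx2-5 was the marker above the 99th percentile of Olfr genes. Their summed intensity ranged from 1887 to 2248, and their part in the Chrm2 level was not tested.

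The tissue label was checked against markers of motor neurons. All 8 spinal motor neuron markers were above background, among them Isl1 by 2.85, Isl2 by 1.93 and Lhx3 by 1.15 (log2). Mnx1, whose promoter drives the reporter, was the nearest to background at 0.99 above it, and it was the marker not above the 99th percentile of Olfr genes, where the count was 7 of 8. Genes of visceral and hindbrain motor neurons, which are cholinergic as well, were above background in 6 of 6 cases, with Tbx20 at 2.40 and Tbx3 at 1.08 above it (log2). Of the 6, 2 were above the 99th percentile, and Tbx3 was not. Of 5 matched genes used in forebrain cholinergic neurons, 4 were above, including Ngfr at 3.46 and Lhx8 at 0.95, and Gbx1 was below (log2). Of the 5, 2 were above the 99th percentile, and Lhx8 was not. These genes are used in other cells too, and the share of Chat that each kind of neuron contributed was not tested. Of 10 genes of other transmitters, 6 were above background, with Th at 3.08 and Slc17a8 at 2.51 the farthest from it (log2), while Slc17a6, of glutamate neurons, differed by -0.02 with an adjusted p of 0.784. Of the 10, 2 were above the 99th percentile. The shares of all genes above these backgrounds were 65.9% and 46.1%.

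For receptors of the other fast transmitters, 15 of 17 ionotropic glutamate receptor genes were above background. Of the GABA-A and glycine receptor genes 5 of 21 were, beside the 8 of 16 nicotinic genes and 65.9% of all genes. At the 99th percentile of Olfr genes the counts were 10, 3 and 5, against 46.1% of all genes. The median difference from background was 1.28 for the glutamate list and -0.36 for the GABA-A and glycine list (log2). These counts are descriptions, and differences between the families were not tested.

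The next question was how far each gene varied between arrays. The SD over the 6 arrays was 0.23 for Chrm2, 0.22 for Slc5a7 and 0.20 for Ache (log2), above 98.6%, 98.2% and 97.6% of the 500 genes nearest to each in level. The median SD of those neighbours was 0.072, 0.072 and 0.076. Chat, Chrnb2, Chrna3 and Chrna7 had SDs of 0.097, 0.087, 0.078 and 0.070, above 76%, 76.2%, 70.6% and 55.6% of their neighbours. Chrna4 at 0.046 lay above 34.4% and Chrnb4 at 0.034 above 5.80%. The coefficient of variation on the linear scale ranged from 2.33% for Chrnb4 to 15.7% for Slc5a7.

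**Figure D3:**
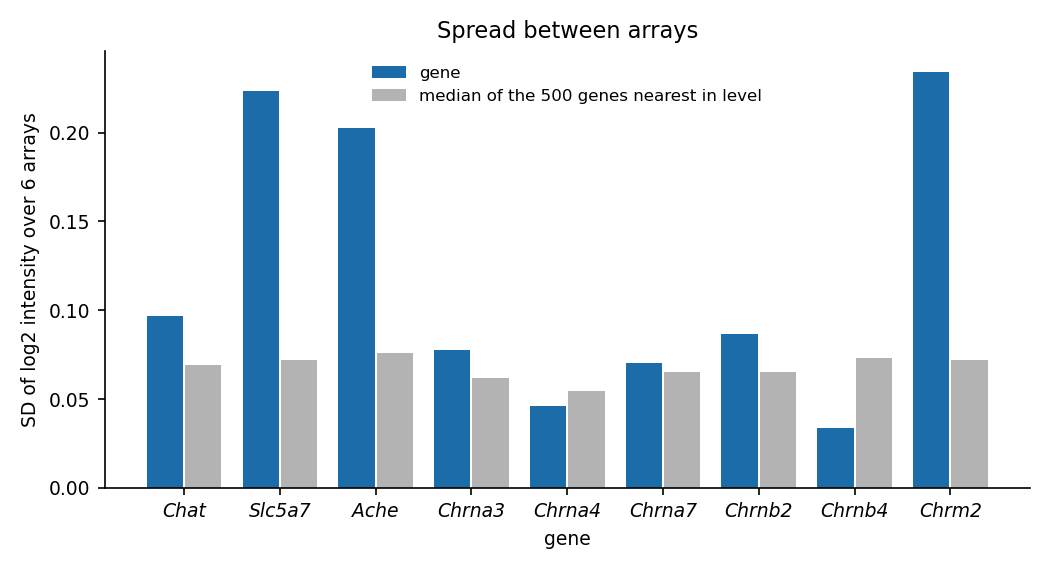
SD of log2 intensity over 6 arrays for each cholinergic gene (blue) and the median SD of the 500 genes nearest to it in mean level (grey). Chrm2, Slc5a7 and Ache reach 0.20 to 0.23 against grey bars of 0.072 to 0.076, and Chrnb4 lies below its grey bar.

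Single arrays set part of this spread. Without replicate 6 the SD of Chrm2 was 0.14, and without replicate 4 that of Ache was 0.14, whereas that of Slc5a7 was 0.18 or more with any array left out. Without replicate 5 the SD of Chrnb4 was 0.022 and that of Chrnb2 was 0.057, and that of Chrnb4 was 0.051 when arrays were centred on their medians.

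The arrays did not keep one order across the members. Replicate 8 was the highest array for 4 members (Slc5a7, Ache, Chrna4 and Chrnb2) and the lowest for Chrna7. Replicate 4 was the lowest for 4 members (Slc5a7, Ache, Chrna3 and Chrna4), and replicate 6 lay below the mean for all 9. The median deviation of the 9 members from their own means was 0.094 in replicate 8, 0.058 in replicate 7 and -0.068 in replicate 4 (log2). The methods describe batches of EBs, but the labels tie no array to one, so no values within batches can be given.

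**Figure D4:**
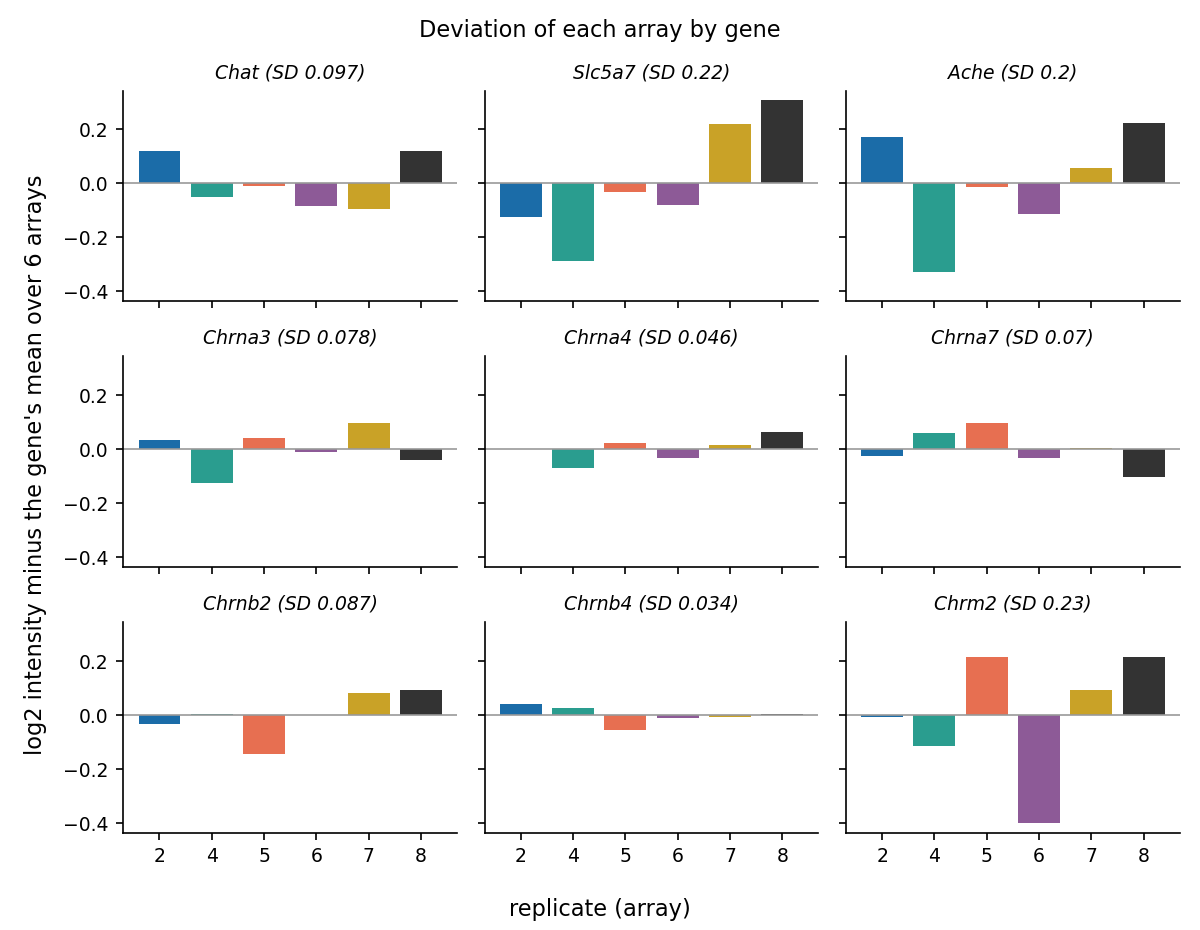
Deviation of each array from the gene's mean over 6 arrays (log2 intensity), in one panel per cholinergic gene with the same scale in all panels. Slc5a7 and Ache are lowest in replicate 4 and highest in replicate 8, Chrm2 is lowest in replicate 6, and the bars of Chrnb4 stay within -0.056 and 0.040.

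The study corrected its arrays for batches of neurons with a linear model on Olig2, Mnx1, Isl1 and Lhx3, transcription factors of motor neurons and their progenitors. To ask whether cholinergic genes followed those factors here, the log2 intensity of each gene above background was fitted on the mean of the 4 genes, which was 9.05 in replicate 2, 9.07 in replicate 4, 9.23 in replicate 5, 9.11 in replicate 6, 9.03 in replicate 7 and 9.17 in replicate 8. Slopes are log2 units per log2 unit of that mean, and a slope of 1 means equal change. By limma with Benjamini-Hochberg adjustment, 0 of the 9 members had a slope that differed from 0, and 0% of the 12789 genes tested did. At an unadjusted p under 0.05 there were 0 members and 509 genes, or 3.98%. The slope was 0.27 ± 0.55 for Chat, 0.54 ± 1.12 for Slc5a7, 0.33 ± 1.03 for Ache and 1.22 ± 1.10 for Chrm2 (SE). Among the nicotinic subunits it ranged from -0.57 ± 0.47 for Chrnb2 to 0.28 ± 0.36 for Chrna4. All 9 had an adjusted p of 0.999. The 4-gene mean spanned 9.03 to 9.23, and with so narrow a range a slope of 1 lay within 2 SE for each of Chat, Slc5a7, Ache, Chrna7 and Chrm2. A relation of that size was thus not excluded for these genes, and no slope was called for any gene. The span of 2 SE is a rough measure and not the limit of the test, so nothing is concluded for the other members. With Olig2 left out of the mean, the slope was 0.668 ± 0.443 for Chat and 1.292 ± 0.916 for Slc5a7 (SE). For Ache it was 1.302 ± 0.813 and for Chrm2 1.995 ± 0.793 (SE). The nicotinic subunits then ranged from -0.26 ± 0.46 for Chrnb2 to 0.44 ± 0.29 for Chrna4. Slope sizes thus depended on whether Olig2 was in the mean, and again no slope was called for any gene.

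The correlations gave the same count of calls. Pearson's r of Chat with the 4-gene mean over the 6 arrays was 0.21 (exact permutation p 0.688, adjusted over all genes tested 1.0), and Spearman's rho was 0.31 (exact permutation p 0.564, adjusted 1.0). The farthest r from 0 among members was -0.72 for Chrnb4 (exact permutation p 0.0958, adjusted 1.0), with a rho of -0.54 (exact permutation p 0.297, adjusted 1.0). Without replicates 5 and 8, whose 4-gene mean lay farthest from its median, r was negative for all 9 members, from -0.997 for Chrm2, whose r over all 6 arrays was 0.39, to -0.21 for Chrna7. That leaves replicates 2, 4, 6 and 7, whose 4-gene mean lay between 9.03 and 9.11. So few arrays over so narrow a range give no direction. The smallest exact p that 6 arrays allow was 0.00139, and the smallest adjusted p over 12789 genes was 0.807.

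The genes whose pattern over the 6 arrays was most like that of Chat were Bicd1, Lrrtm2 and Opa1, each with a Pearson's r of 0.98. Of 12792 genes searched, 125 had an r over 0.9 with Chat over these 6 arrays of a single group. For the other members the count ranged from 39 for Chrna3 to 174 for Slc5a7. A search of so many genes over 6 arrays can give such an r without any link, and no link was tested.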

How the data were processed

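Expression was measured in 6 samples of EBs on GeneChip mouse exon arrays. The deposited table gives each gene a linear (not log) intensity in each array, which the authors made by Robust Multi-array Averaging and, per the methods, as the mean over the exons of a gene in the Aroma Affymetrix package. The labels name RMA and Affymetrix Expression Console. Per the methods, exons were assigned to genes by a release of the Affymetrix annotation for this array, and arrays of each batch of EBs were read together in Expression Console and screened for outliers by Grubbs' test before classification. The genome build, and which arrays were normalized with these 6, are not given in the sources used here. The table held 0 columns of other samples.

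Intensities were taken to log2 with no pseudocount. Of 168 names in the gene lists, 153 were matched, 1 by a synonym (Tmem35a) in the RefSeq table of GRCm38.p6. Tests across all genes used limma 3.58.1 in R 4.3.3, and the code was tested on simulated data. Exact permutation tests used all 720 orders of the arrays. The named genes were all members and, in the other lists, all of 5 or fewer counted genes or up to 4 with high and low levels; others were named for their role after their values were seen. The genes most like Chat were those with the highest r. The members and lists were chosen with earlier results of these data known. Array numbers in the labels name arrays and pair nothing. The number of arrays limits the precision. Alternatives changed the scaling, pseudocount, background, test, covariate, filter and arrays. Some genes counted in the lists are not reported here by name.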

Additional observations from a re-analysis of the deposited data

How the results depend on the processing

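All 9 measured members were above background under each of 13 alternatives: median centring, quantile normalization, 16 added before log2, each array left out, 3 other backgrounds and an exact sign-flip permutation test, whose adjusted p was 0.0332, set by the smallest p that 6 arrays allow. Centring moves a gene and its background alike, so it could not change this result. Each member was above background in 6 of 6 arrays. Other rescaling, leaving out an array, a lower background or the sign-flip test could therefore hardly change the result. The stricter background was the 99th percentile of Olfr genes. The smallest difference was 0.38 (log2) for Chrnb4 at the 99th percentile of Olfr genes, where 46.1% of all genes were above background. Against the median of Olfr genes 94.9% were, and against vomeronasal receptor genes 74.8%, a share that counts the Olfr genes among all genes. The slope calls stayed at 0 of 9 members and 0 genes under the 11 alternatives run. The sign of the slope changed in at least 1 of them for Chat, Slc5a7, Ache, Chrna3, Chrna7 and Chrnb2, so no direction is given for these. None is given for Chrna4, Chrnb4 and Chrm2 either, since no slope was called. The median SD of members was 0.084 to 0.10. No member had an array past Dixon's critical value for 6 values, and under median centring the highest ratio was 0.62 for Chrna4. With 16 added, the mean of Chrnb4 was 8.80, more than its SD from the reported value. No paired analysis was possible because the labels give a single group.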
